A study of Mus musculus with 5 samples.

Results

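This report describes 9 G protein coupled receptors that tune insulin secretion, measured in MIN6 cells: the incretin and glucagon receptor genes Gipr, Glp1r and Gcgr, the lipid receptor genes Ffar1 and Gpr119, the autonomic receptor genes Adra2a and Chrm3, and the somatostatin receptor genes Sstr3 and Sstr5. They were taken by name from the gene names of the array files, with control spots left out, which gave 10 probes for the 9 genes, out of 39429 probes for 31821 names in all. Each gene had 1 probe except Glp1r, which had 2, and each probe had 1 spot per array. The genes were chosen by function with earlier measured values in view, namely detection and signal on each array, the spot flags of Gipr and the difference between the groups, so those values are given as a description and support nothing by themselves.

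MIN6 cells come from an insulinoma of a mouse and are widely used in place of beta cells because they make and secrete insulin. The cells received exosomes, small extracellular vesicles, that had been collected by ultracentrifugation from the medium of mouse muscle kept ex vivo. In the EXO-STD group (2 arrays) the donor mice had been on a standard diet, and in the EXO-HP group (3 arrays) on a high fat diet. Both groups thus received muscle vesicles, and there was no group without vesicles. The sources used here do not give the age, strain or number of the mice, or the dose and duration of the treatment. The titles call the arrays biological replicates without saying whether cultures or vesicle preparations were separate, so the intervals below measure the spread between these samples, part of which may be technical.

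Insulin release is started by glucose and is then adjusted by receptors on the beta cell surface. The GIP, GLP-1 and glucagon receptors and GPR119 couple to Gs, which raises cAMP and amplifies release. The free fatty acid receptor FFAR1 and the muscarinic M3 receptor, encoded by Chrm3, couple to Gq and phospholipase C and amplify release as well. The alpha-2A adrenergic receptor and the somatostatin receptors couple to Gi and Go and restrain release.

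The probes of 4 genes matter most for reading the results and are shown first, 5′ to 3′, as the array files give them. Gipr is shown because the finding on it rests on a single spot, Glp1r because its probes overlap, and Ffar1 and Gpr119 because, Gipr aside, their signals had the widest ranges over the 5 arrays. Of the Gipr and Gpr119 probes only the first 30 bases are printed. Capitals mark the bases at which the Glp1r probes differ from each other, and the Gipr, Ffar1 and Gpr119 probes have none.
Gipr, first 30 bases: aatcaactggaaggcaattgggatagacat
Glp1r, brighter probe: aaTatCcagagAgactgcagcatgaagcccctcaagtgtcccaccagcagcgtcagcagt
Glp1r, dimmer probe: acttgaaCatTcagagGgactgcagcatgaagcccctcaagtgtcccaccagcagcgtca
Ffar1: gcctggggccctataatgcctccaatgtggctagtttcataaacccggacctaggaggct
Gpr119, first 30 bases: gcataaatctctaatgtgcctctgttcaat

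The array design places the Gipr probe at chromosome 7, 19742486 to 19742545, on the minus strand (mm9 build, as are the positions that follow). The Glp1r probes lie at chromosome 17, 31073261 to 31073320 for the brighter and 31073256 to 31073315 for the dimmer probe, both on the plus strand, so that they are offset by 5 bases and share 55. Within the shared 55 bases they differ at 3 positions, written C3T, T6C and G12A, where positions count from 1 at the 5′ end of the shared stretch and the base of the dimmer probe comes first. The Ffar1 probe lies at chromosome 7, 31645724 to 31645783, and the Gpr119 probe at chromosome X, 46021196 to 46021255, both on the minus strand. The Gcgr probe lies at chromosome 11, 120400221 to 120400280, and the Adra2a probe at chromosome 19, 54123363 to 54123422, on the plus strand. On the minus strand lie the probes of Chrm3 at chromosome 13, 9875880 to 9875939, of Sstr3 at chromosome 15, 78367445 to 78367504, and of Sstr5 at chromosome 17, 25626870 to 25626929. The design assigns each probe to the RefSeq transcript of its gene, and exon annotation was not used here.

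Slide 1 carried both EXO-STD arrays together with EXO-HP replicate 1, and slide 2 carried the other EXO-HP arrays, replicates 2 and 3. The share of spots well above background, a call of the scanner software, was between 71.8% and 74.0% on slide 1 and was 91.6% and 81.6% on slide 2. No spot was saturated. All 16 listed beta cell markers, among them Ins1, Ins2, Iapp, Pdx1 and Nkx6-1, were well above background on all 5 arrays. The alpha cell markers Gcg, Ttr and Irx2 were too. Values below are log2 signals relative to the 75th percentile of each array, so that 0 is that percentile, and the level of 1 probe cannot be set against that of another.

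The receptors were detected throughout, with 1 exception. Since RNA was measured in bulk, fewer cells that express a gene and less RNA per cell cannot be told apart. On both EXO-STD arrays 8 of the 9 genes were well above background, and on each of the 3 EXO-HP arrays 9 were. The exception was Gipr, which encodes the receptor for glucose-dependent insulinotropic polypeptide, on EXO-STD replicate 1. With limma, 0 of the 10 probes passed adjusted p 0.05, as did 0% of all 31943 tested probes, and 0 of the 10 had an unadjusted p under 0.05, against 5.68% of all tested probes (5.44% higher and 0.241% lower in EXO-HP). Over the 9 genes, each represented by its brighter probe, 5 log2 fold changes (EXO-HP minus EXO-STD) were above 0 and 4 below 0, where 62.5% of all tested probes were above 0 and 37.5% below. Their median was 0.06, beside 0.07 over the 25918 tested genes. Gipr, 1 of the 5 above 0, passed the filter on dim probes through the EXO-HP arrays alone, which favours values above 0. With only probes well above background on all 5 arrays, which drops Gipr, the median was 0.01.

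The Gipr signal was missing on 1 array and was high on the other 4. EXO-STD replicate 1 gave a processed signal of 4.99, and EXO-STD replicate 2 gave 6742. The EXO-HP arrays gave 5401, 3376 and 4144 in the order of their numbers. The low array thus lay apart from the other EXO-STD array and from all 3 EXO-HP arrays, and since its value is a stand-in for a spot at background, no exact fold is given against it.

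On EXO-STD replicate 1 the scanner software did not find the Gipr spot and entered a surrogate, the stand-in it writes for signals not above background. The mean of the spot's 68 pixels was 51.8 with a pixel SD of 15.3, above a local background of 28.7. The software's background subtraction, which does not use that local value, left a signal of -2.17. The software did not call this signal different from background. The spot carried no outlier flag, so filters on outlier spots keep it. On EXO-STD replicate 2 the mean of 66 pixels was 7289 over a local background of 31.1. The spots around it were not missing. Of the 8 spots nearest to that of Gipr, 6 were well above background on EXO-STD replicate 1, and these 6 differed from their mean on the other 4 arrays by between -0.17 and 0.20 on the log2 scale. The remaining 2, at -1.55 and -0.88, were dim spots that were not well above background on EXO-STD replicate 2 either.

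**Figure D1:**
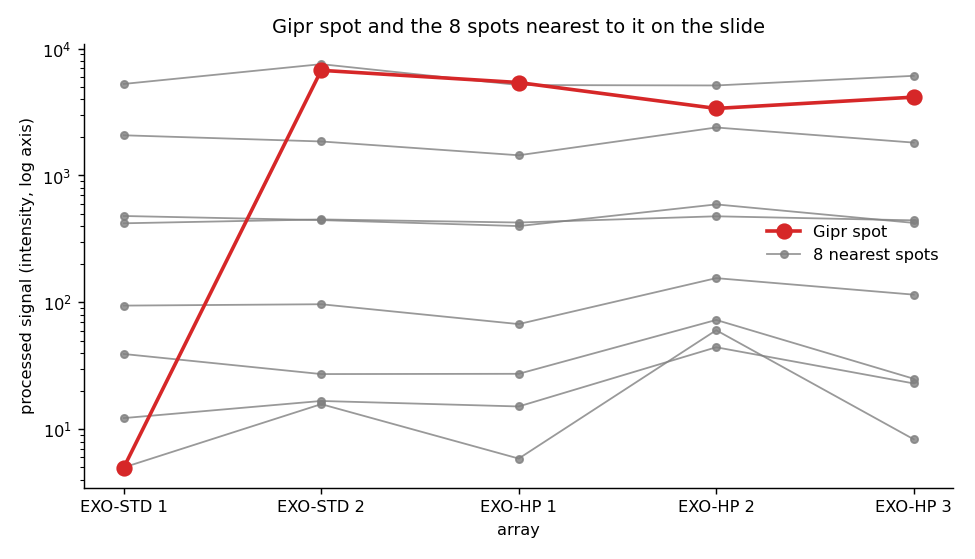
Processed signal (intensity, log axis) of the Gipr spot in red and of its 8 nearest spots in grey on each of the 5 arrays, where lines join the values of 1 spot. The Gipr spot read 4.99 on EXO-STD replicate 1 and between 3376 and 6742 on the other 4 arrays.

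Spots of this kind were rare. On EXO-STD replicate 1, 13183 spots had a signal of 1000 or more on each of the other 4 arrays, and 2 of them, Gipr and Gsdmd, were not well above background there. The counts were 2 of 13019 on EXO-STD replicate 2, 2 of 13364 on EXO-HP replicate 1, 0 of 13002 on EXO-HP replicate 2 and 1 of 13034 on EXO-HP replicate 3. In all, 7 spots were not well above background on a single array, of which 6 were also not significantly above background there and 5 carried no outlier flag there.

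The difference of Gipr between the groups depended on that spot. Its normalised log2 signal was -8.65 and 1.50 on the EXO-STD arrays, in the order of their numbers as in the sentences that follow, and 1.62, 0.50 and 0.93 on the EXO-HP arrays. The group values overlapped, since EXO-STD replicate 2 lay above EXO-HP replicates 2 and 3. With all arrays the log2 fold change was 4.60 ± 2.79 (SE), with a 95% interval from -2.34 to 11.54. Its size follows the value entered for the missing spot, and it was 2.58 with normexp and 3.15 with the deposited value table. Without EXO-STD replicate 1 it was -0.48 ± 0.50 (SE, interval -1.79 to 0.83), where the lone EXO-STD array is assumed to vary like the EXO-HP arrays, and without EXO-STD replicate 2 it was 9.67. Over the 4 arrays on which the spot was well above background, the signal was 1.14 ± 0.52 (SD, n = 4).

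Glp1r, which encodes the receptor for glucagon-like peptide 1, hardly varied. Its brighter probe read -1.33 and -1.20 on the EXO-STD arrays and -1.30, -1.29 and -1.40 on the EXO-HP arrays, a range of 0.20 with overlapping groups. The log2 fold change was -0.06 ± 0.19 (SE), and the 95% interval, from -0.53 to 0.40, includes changes of modest size in either direction. The dimmer probe read -2.33, -2.08, -2.22, -2.39 and -2.24 on the arrays in the same order and gave -0.08 ± 0.20 (SE). With quantile normalisation the dimmer probe gave -0.18, and every EXO-HP array lay below both EXO-STD arrays. The brighter probe gave -0.11 there, with overlapping groups.

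The Glp1r probes printed above, which share 55 bases except for the 3 in capitals, differed in signal on every array. The brighter probe exceeded the dimmer one by between 0.84 and 1.10, with a mean of 0.95 ± 0.11 (SD, n = 5 arrays). This offset lies between probes and says nothing of the groups, whose fold changes the probes gave within 0.02 of each other. Around the spot of the dimmer probe on EXO-STD replicate 2 the local background carried an outlier flag, at a median of 36.

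Gcgr, the glucagon receptor gene, was the single gene of the 9 whose groups did not overlap in these values. It read -1.65 and -1.88 on the EXO-STD arrays and -2.07, -2.01 and -2.18 on the EXO-HP arrays, so that every EXO-HP array lay below both EXO-STD arrays. The same held, downward, for 2.77% of all tested probes. Its log2 fold change was -0.32 ± 0.20 (SE, interval -0.81 to 0.17), a 1.25-fold lower mean. The direction differed between ways of processing that treat local background differently. On EXO-STD replicate 2 the local background of the Gcgr spot had a median of 262 and an outlier flag, against 26 to 31 on the other 4 arrays. The processed signal does not subtract that local value. With normexp, which does, EXO-STD replicate 2 read -2.69 against -1.70 on replicate 1, the groups overlapped and the log2 fold change was 0.19. The deposited value table, whose ranks follow the mean signal minus local background, gave 0.13. Both also leave out the detrending that the processed signal carries, so the part of local background in the change of sign was not tested.

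**Figure D2:**
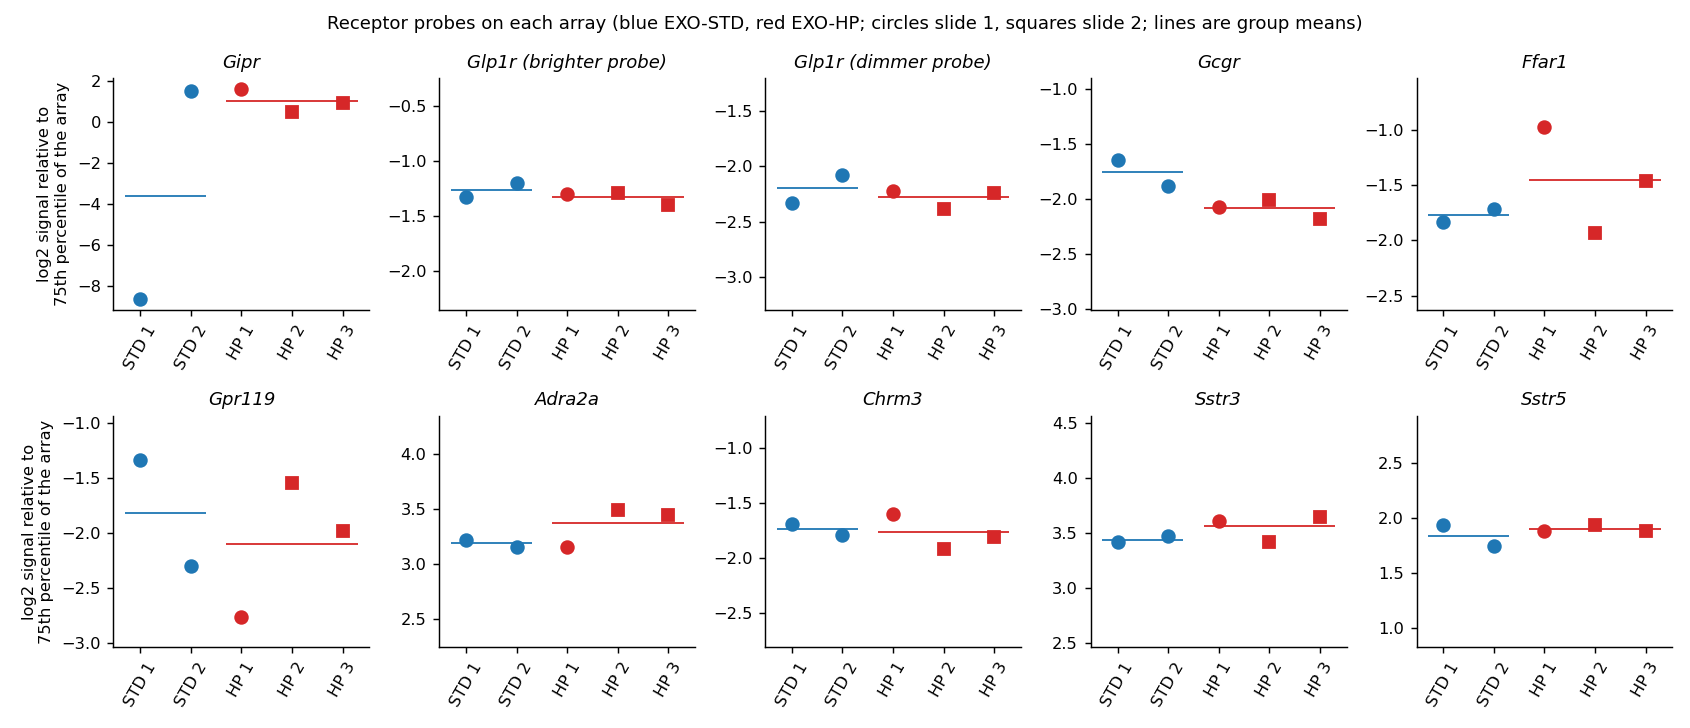
Log2 signal of the 10 receptor probes relative to the 75th percentile of each array, for EXO-STD in blue and EXO-HP in red, with slide 1 as circles, slide 2 as squares and group means as lines. Panels other than Gipr span the same height; Gcgr lies lower on all 3 EXO-HP arrays, and, Gipr aside, Gpr119 in both groups and Ffar1 in EXO-HP spread widest.

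Gipr aside, the lipid receptors had the widest ranges over the 5 arrays, 1.42 for Gpr119 and 0.97 for Ffar1. Ffar1 encodes the receptor for long-chain fatty acids. The signals were -1.83 and -1.71 in EXO-STD and -0.97, -1.93 and -1.46 in EXO-HP. EXO-HP replicate 1 was the highest array and EXO-HP replicate 2 the lowest, so the groups overlapped. The means were -1.77 ± 0.08 (SD, n = 2) and -1.45 ± 0.48 (SD, n = 3), a log2 fold change of 0.32 ± 0.32 (SE, interval -0.48 to 1.12). Without EXO-HP replicate 1 the fold change was 0.07. On slide 1 alone, where EXO-HP replicate 1 stands against both EXO-STD arrays, it was 0.80.

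Gpr119 encodes a receptor for lipid amides such as oleoylethanolamide. The signals were -1.34 and -2.30 in EXO-STD and -2.76, -1.55 and -1.98 in EXO-HP. The highest array, EXO-STD replicate 1, and the lowest, EXO-HP replicate 1, lay on the same slide and 1.42 apart. The means were -1.82 ± 0.68 (SD, n = 2) and -2.10 ± 0.62 (SD, n = 3), a log2 fold change of -0.27 ± 0.46 (SE, interval -1.43 to 0.88). It turned to 0.21 without EXO-STD replicate 1 and to 0.06 without EXO-HP replicate 1, and was -0.94 on slide 1 alone.

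For comparison, probes with 3 or more usable spots on an array and a signal between 200 and 30000 had a median SD between repeated spots of 0.074 to 0.092 on the log2 scale, over 216 to 233 probes per array. The 95th percentile of that SD was 0.205 to 0.302. The SDs of Gpr119 in both groups and of Ffar1 in EXO-HP lay above these values. That of Ffar1 in EXO-STD lay within the range of the medians. Repeated spots share 1 labelled RNA, so this comparison covers spot error and not labelling or culture.

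**Figure D3:**
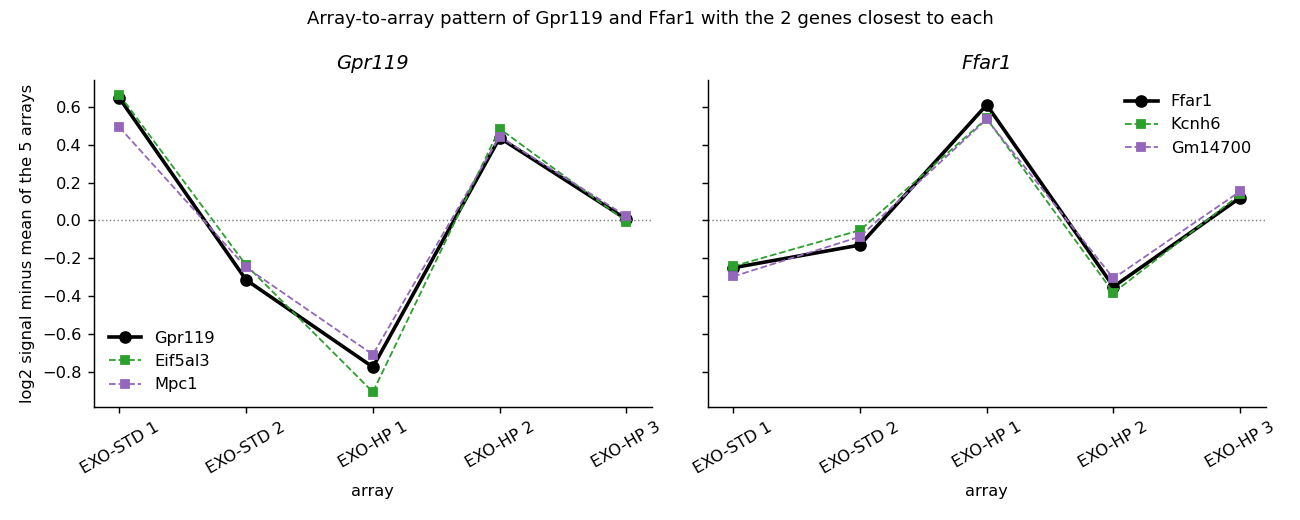
Log2 signal of Gpr119 (left) and Ffar1 (right) on the 5 arrays after subtraction of each gene's mean over the arrays, with the 2 genes closest to each as dashed lines. Gpr119 was highest on EXO-STD replicate 1 and lowest on EXO-HP replicate 1, where Ffar1 was highest.

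Likeness between genes was measured as the Euclidean distance between mean-centred log2 values over the 5 arrays, among 18106 other genes well above background on all of them. The genes closest to Gpr119 were Eif5al3 (distance 0.161) and Mpc1 (0.182). Those closest to Ffar1 were Kcnh6 (0.112) and Gm14700 (0.120). A gene that varies little has close neighbours by construction, so distances are not set against each other here. The closest genes were Vsig10 and Mapk4 for Glp1r, Gm11531 and Dimt1 for Gcgr, Shf and Eif4e2 for Adra2a, Wdyhv1 and Epha1 for Chrm3, Tpm3 and Rad54l for Sstr3, and Siglec1 and Erf for Sstr5, at distances from 0.033 to 0.075.

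The autonomic receptors differed little between the groups. Adra2a encodes the alpha-2A adrenergic receptor, through which noradrenaline inhibits insulin release. It read 3.22 and 3.16 on the EXO-STD arrays and 3.16, 3.49 and 3.45 on the EXO-HP arrays. The arrays of slide 2 were the higher ones, and EXO-HP replicate 1 lay with the EXO-STD arrays of its slide. The log2 fold change was 0.18 ± 0.21 (SE, interval -0.33 to 0.70), and it was -0.03 on slide 1 alone. With quantile normalisation (0.20) and in the deposited value table (0.14) every EXO-HP array lay above both EXO-STD arrays.

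Chrm3, the gene of the muscarinic receptor through which vagal acetylcholine enhances release, read -1.69 and -1.79 on the EXO-STD arrays and -1.60, -1.92 and -1.81 on the EXO-HP arrays. Its groups overlapped, and the log2 fold change was -0.04 ± 0.20 (SE, interval -0.54 to 0.47).

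The somatostatin receptor genes were the steadiest besides Glp1r. Sstr3 read 3.42 and 3.47 on the EXO-STD arrays and 3.61, 3.42 and 3.65 on the EXO-HP arrays, with EXO-HP replicate 2 beside EXO-STD replicate 1. Its log2 fold change was 0.12 ± 0.19 (SE, interval -0.36 to 0.60). Sstr5 read 1.94 and 1.75 on the EXO-STD arrays and 1.88, 1.94 and 1.88 on the EXO-HP arrays, all 3 of them between the EXO-STD values or level with the higher one. Its log2 fold change was 0.06 ± 0.19 (SE, interval -0.42 to 0.53). Median scaling shifts the median log2 fold change of the tested probes from 0.07 to -0.09, and under it the values were -0.05 for Sstr3 and -0.11 for Sstr5.

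**Figure D4:**
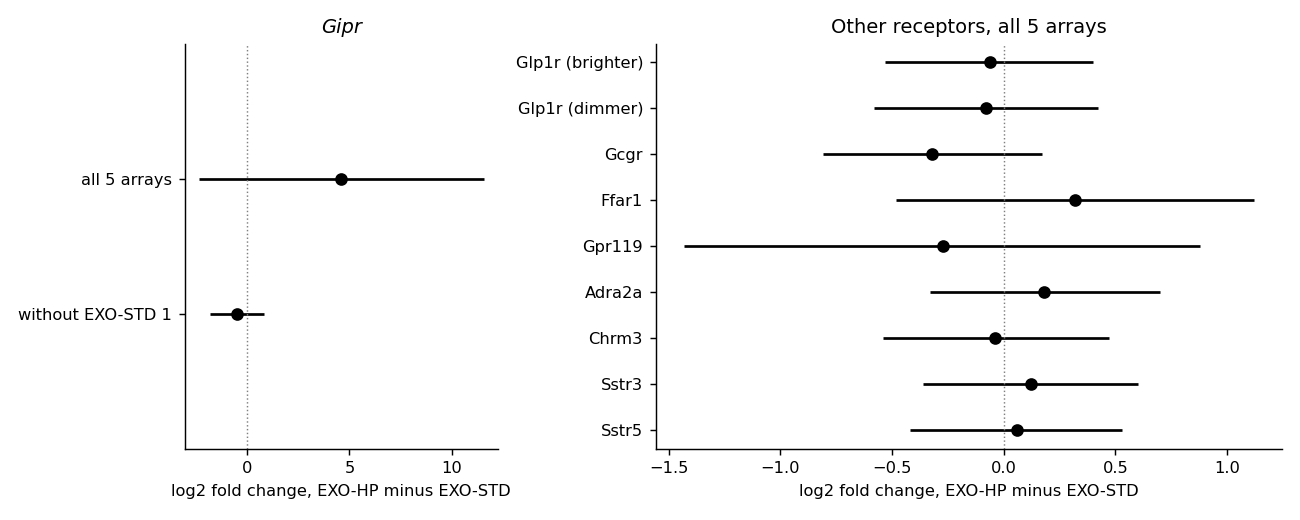
Log2 fold changes (EXO-HP minus EXO-STD, points) with 95% intervals (bars) from the limma fit, for Gipr with and without EXO-STD replicate 1 on the left and for the other probes on the right, with separate axes. All intervals include 0, and that of Gipr moves from 4.60 to -0.48 at its centre.

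The ligands of these receptors were also measured. Gcg, which encodes glucagon and GLP-1, read 5.30 and 5.19 on the EXO-STD arrays and 4.96, 5.44 and 5.37 on the EXO-HP arrays, and Gip was well above background on all 5 arrays with a log2 fold change of -0.11. Sst, the somatostatin gene, read -5.52 and -5.11 on the EXO-STD arrays and -4.87, -4.71 and -4.80 on the EXO-HP arrays, a log2 fold change of 0.52 ± 0.22 (SE). Cort, the cortistatin gene, had 0.34 ± 0.22 and also separated the groups. Th, which makes catecholamine precursors, had 0.29 ± 0.36. Of the 9 genes of ligands and ligand processing, 6 were above 0 and 3 below, with a median of 0.28, and 0 passed adjusted p 0.05. Sst and Cort were the 2 that separated the groups. Over all tested probes, 15.1% separated the groups with EXO-HP higher, and 62.5% were above 0. Chat and Ache, of the 9, passed the filter on dim probes through the EXO-HP arrays alone, which favours values above 0.

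Genes that carry the receptors' signals had medians close to 0, beside 0.07 over all tested genes. Of 25 tested genes of the Gs and cAMP pathway, 12 were above 0 and 13 below, with a median of -0.01. The largest differences among those well above background on all arrays were in Rapgef3, the cAMP sensor EPAC1, at 0.59 ± 0.32 (SE), Pde4b, a cAMP phosphodiesterase, at 0.36 ± 0.41, and Crem, a cAMP-responsive transcription factor, at -0.23 ± 0.25, whose 3 probes ranged from -0.23 to 0.20. Of 18 tested genes of the Gq and phospholipase C pathway, 7 were above 0 and 11 below, with a median of -0.02. Plcb2, a phospholipase C, had 0.54 ± 0.20 and was higher on all 3 EXO-HP arrays than on either EXO-STD array. It was the 1 gene of the 18 to separate the groups, and 15.1% of all tested probes did so in this direction. Dgka, a diacylglycerol kinase, had -0.25 ± 0.25, and the protein kinase C gene Prkce had 0.25 ± 0.32.

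The genes of Gi and Go signalling and of the beta and gamma subunits had 9 of 15 tested members above 0 and a median of 0.03. Gnb4, a beta subunit gene, read -4.89 and -5.16 on the EXO-STD arrays and -1.57, -4.47 and -5.27 on the EXO-HP arrays, with EXO-HP replicate 1 far above the other 4 arrays and a log2 fold change of 1.26 ± 1.08 (SE). Gng7, a gamma subunit gene, had 0.60 ± 0.29, with every EXO-HP array above both EXO-STD arrays. Such a separation held for 2 of the 15 genes, beside 15.1% of all tested probes. Kcnj3, a G protein-gated potassium channel gene, had 0.46 ± 0.28, with a second probe at 1.46. That second probe was dim, with a mean of -7.16, and was well above background on only 2 of the 5 arrays. Among 17 genes of receptor desensitisation and RGS proteins, 9 were above 0, with a median of 0.03. Grk2, a kinase that desensitises receptors, read 0.56 on EXO-STD replicate 1 and between 1.59 and 1.98 on the other 4 arrays, a log2 fold change of 0.70 ± 0.36. Rgs4 had 0.43 ± 0.33, with a second probe at -0.02, and Rgs11 had -0.28 ± 0.27. With limma, 0 genes of these lists passed adjusted p 0.05, as for all tested probes, and 1 of them, Plcb2, had an unadjusted p under 0.05, beside 5.68% of all tested probes.

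Other receptors that act on insulin secretion were listed beside the 9. Of 38 on the array, 33 passed the filter on dim probes, and 24 of these were above 0 and 9 below, where 62.5% of all tested probes were above 0. Their median was 0.15. The groups did not overlap for 9 of the 33, all higher in EXO-HP, against 15.1% of all tested probes. Of the 9, Adcyap1r1, Gpr84, Npy1r and Sstr1 passed the filter through the EXO-HP arrays alone. Entry by that route favours genes that are higher in EXO-HP, so the counts and the median are a description only. Mtnr1b, the melatonin receptor 1B gene, read -5.77 and -5.53 on the EXO-STD arrays and -5.06, -3.72 and -3.82 on the EXO-HP arrays, a log2 fold change of 1.45 ± 0.45 (SE). Adra2b, an alpha-2 adrenergic receptor gene, had 0.74 ± 0.37, with overlapping groups. None of the 33 passed adjusted p 0.05 (limma), and 4 had an unadjusted p under 0.05, beside 5.68% of all tested probes. Npy1r was among these 4. After subtraction of each gene's EXO-STD mean, the 38 genes had medians of 0.05, 0.52 and 0.18 on the 3 EXO-HP arrays, and the arrays of slide 2 were also those with more spots well above background. The part of slide in this difference was not tested. For the 9 receptors described here the corresponding medians were 0.03, -0.02 and 0.04.

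**Figure D5:**
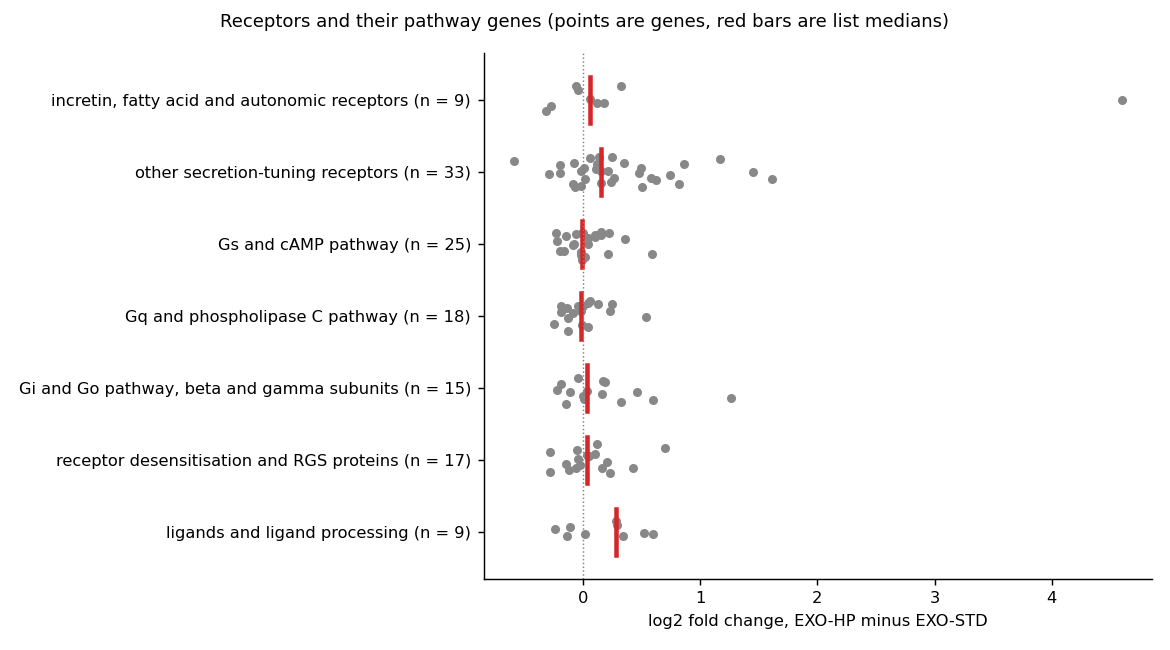
Log2 fold changes (EXO-HP minus EXO-STD) of the tested genes of each list, with 1 point per gene and a red bar at the list's median; vertical scatter within a list has no meaning. The point at 4.60 is Gipr, and the other 8 of the 9 receptors lie between -0.32 and 0.32.

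Because the vesicles came from muscle, muscle transcripts were followed beside the receptors. Of 12 tested skeletal muscle markers, 12 were above 0, with a median of 0.52. Among them, Mylpf, Ckm, Mb and Myoz1 passed the filter on dim probes through the EXO-HP arrays alone, which favours values above 0. Markers of other cell types were also mostly above 0, with 5 of 5 macrophage markers (median 0.36), 5 of 5 neuron markers (0.22) and 3 of 4 fibroblast markers (0.43). Dcn and Lum, of the fibroblast markers, passed the filter through EXO-HP alone as well. Over all tested probes 62.5% were above 0, and the median over all tested genes was 0.07. After the same subtraction, the 15 listed skeletal muscle markers had medians of 0.71, 0.56 and 0.12 on the 3 EXO-HP arrays. Of the 15, 8 were well above background on all 5 arrays, while the fast myosin genes Myh4 and Myh1 were well above background on EXO-HP replicate 2 alone, as were genes of the other lists such as Chrm1 and Mtnr1a, melatonin receptor 1A. The part of these transcripts in the receptor values was not tested.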

How the data were processed

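RNA from 5 MIN6 samples (0.1 µg per labelling, per the labels' protocols) was measured on 1-colour Agilent arrays, 1 array per sample. The deposited scanner tables hold spot intensity values, for which the file headers name Feature Extraction 10.7.3.1 with spatial and multiplicative detrending and surrogates for dim spots; pixel numbers and flags (other) and a p-value of each spot against background come from the same deposited tables. Version 9.1 of Agilent Feature Extraction, and limma, stand in the submitters' processing notes. The deposited value table holds log2 values with a median of 7.93 on each array, whose ranks equalled those of mean signal minus median local background (Spearman rho = 1); its direction is that of the scanner signals, its genes were not centred, and 0 of its columns were unmatched.

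From the log2 processed signal of each array its 75th percentile was subtracted; spots with an outlier flag were dropped and repeated spots averaged. Probes without a usable spot on some array (110) and those well above background on under 2 arrays of each group (7376) were left out, leaving 31943. The comparison used limma 3.58.1 under R 4.3.3 (lmFit and eBayes, no covariates, 3 residual and 2.61 prior degrees of freedom) and Benjamini-Hochberg adjustment over all tested probes. The brightest probe stands for a gene. Symbols other than the receptors' were updated through RefSeq accessions of GRCm38.p6, used for names only. The receptors, lists and tests were chosen with earlier results of these data known. From each pathway list, up to 3 genes with the largest absolute fold change among those well above background on all arrays were named. The ligands Gcg and Gip, marker genes, and dim genes given for their detection were named outside that rule, with their values known. Of the marker lists, fibroblast, macrophage, neuron, delta and PP cell markers had medians of 0.43, 0.36, 0.22, 0.25 and -0.03, beta cell markers 0.14 and alpha cell markers 0.31. Some genes of these lists are not reported here. The number of arrays limits the precision.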

Additional observations from a re-analysis of the deposited data

How the results depend on the processing

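The receptors were recomputed under 14 alternatives, and under the mean of its probes for Glp1r. No probe passed adjusted p 0.05 under 13 of them; without EXO-STD replicate 1, 3 probes passed (0 to 3 when 1 array was left out), and 1 of these, of Btbd10, was among the bright spots not well above background on EXO-STD replicate 2. None was of a receptor, and the lone EXO-STD array is there assumed to vary like the EXO-HP arrays. The median over the 9 genes was -0.11 with median scaling, 0.10 with normexp, 0.12 with the deposited values and 0.01 with only probes well above background on all 5 arrays, which drops Gipr. It ranged from 0.00 to 0.09 when 1 array was left out, with the highest value without EXO-STD replicate 1 and the lowest without EXO-STD replicate 2. Detection counts kept their values, except that 9 genes were well above background on at least 1 EXO-STD array.

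The sign did not turn for Ffar1 (0.07 to 0.80) and Glp1r (-0.23 to 0.00). Without EXO-STD replicate 1, Gipr had -0.48, Gpr119 0.21 and Chrm3 0.01. Without EXO-HP replicate 1, Gpr119 had 0.06, without EXO-HP replicate 2, Chrm3 had 0.04, and without EXO-STD replicate 2, Sstr5 had -0.04. Normexp gave 0.19 for Gcgr and 0.01 for Chrm3, and the deposited values gave 0.13 for Gcgr, beside the local background of its spot given above. Median scaling, which moves the median of all tested probes from 0.07 to -0.09, gave -0.05 for Sstr3 and -0.11 for Sstr5. With slide as a block, Adra2a had -0.03 and Chrm3 0.14. The causes of these changes of sign were not tested. Over the fits that left out 1 array, Gipr ranged from -0.48 to 9.67, Gpr119 from -0.76 to 0.21, Chrm3 from -0.13 to 0.04 and Sstr5 from -0.04 to 0.15.

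Between arrays with the same replicate number in the titles, deviations from the group means correlated at 0.025 for number 1 and -0.056 for number 2 across probes. With 2 EXO-STD arrays their deviations mirror each other, and the arrays of number 2 lay on different slides. These correlations therefore cannot tell whether the numbers pair the arrays. With the replicate number as a block, 0 probes passed and the median over the receptors was 0.06. No alternative was left unrun.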
